A study of Mus musculus with 2 samples.

Results

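In the mouse ovary 203 sites of open chromatin lay at or just upstream of 192 microRNA genes, and these sites are described here. They were chosen by the peak calls themselves: a peak had to be called in both ovary libraries, its centre had to lie between 2 kb upstream of a GENCODE gene of type miRNA and that gene's end in each library, and both centres had to be over 1 kb from every start site of a protein-coding transcript. The sites came from 79447 one-to-one pairs of overlapping peaks, of which 56818 were over 1 kb from coding starts. Of the 2202 miRNA genes, 192 had a site, or 8.72%, a share that the rule itself fixes. Counts and values of the sites are therefore descriptions, and no test was made on them.

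DNase-seq, which marks open chromatin by where the enzyme DNase I cuts, was run on whole ovaries of female mice aged 36 days. The animals were B6CASTF1/J, first-generation hybrids from a cross of C57BL/6J with CAST mice, with no other genotype or treatment in the labels. There is 1 group with 2 libraries, biological replicates 1 and 2, and each was taken as 1 animal because the labels number the females differently. Replicate 1 had 109169 peaks and replicate 2 had 114462, each with a value that the authors deposited without stating its scaling in what was used here. Because the tissue was taken whole, a low value from few cells with an open site and one from a weakly open site in many cells cannot be told apart.

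MicroRNAs are cut from longer primary transcripts, first in the nucleus by Drosha and Dgcr8 and then in the cytoplasm by Dicer, and the mature strand guides an Argonaute protein to messenger RNAs that match its seed, the bases near its 5′ end. Many microRNA genes lie in introns of coding genes and are made with the host's transcript, while others have a promoter of their own or lie in a long noncoding host. In the ovary, loss of Dicer in granulosa cells disturbs ovulation and fertility, and gonadotropins change the microRNAs of these cells.

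The DNA of 6 sites is printed here because they carry some of the highest values or the gene pairs that the results below return to. Each is given 5′ to 3′ on the strand of the microRNA gene, from the RefSeq GRCm38.p6 sequence of C57BL/6J, so CAST alleles are not shown. Capitals mark the stretches that a footprint, a short run of bases protected from DNase I, covered in both libraries. The sites are at chr7:141221801-141222060 (Mir210), chr11:75462981-75463160 (Mir22), chr11:75173481-75173780 (Mir132), chr11:75173141-75173340 (Mir212), chr14:115042181-115042360 (Mir17) and chr7:139958081-139958300 (Mir202).
Mir210: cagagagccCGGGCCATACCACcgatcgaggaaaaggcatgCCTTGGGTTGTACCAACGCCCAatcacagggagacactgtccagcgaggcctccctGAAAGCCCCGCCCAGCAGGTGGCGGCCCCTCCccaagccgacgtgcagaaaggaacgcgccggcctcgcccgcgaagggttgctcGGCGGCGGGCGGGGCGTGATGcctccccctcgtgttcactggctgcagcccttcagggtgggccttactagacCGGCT
Mir22: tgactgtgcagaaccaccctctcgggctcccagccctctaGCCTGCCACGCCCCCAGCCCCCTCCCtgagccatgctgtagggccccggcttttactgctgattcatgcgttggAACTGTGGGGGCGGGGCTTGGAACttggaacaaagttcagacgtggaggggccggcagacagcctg
Mir132: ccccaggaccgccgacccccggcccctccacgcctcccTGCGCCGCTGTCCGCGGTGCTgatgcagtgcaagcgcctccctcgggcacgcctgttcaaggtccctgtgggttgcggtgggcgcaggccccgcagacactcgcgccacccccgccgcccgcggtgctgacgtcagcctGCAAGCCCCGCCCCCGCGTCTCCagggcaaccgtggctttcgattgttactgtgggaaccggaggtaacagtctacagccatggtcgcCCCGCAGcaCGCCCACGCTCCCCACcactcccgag
Mir212: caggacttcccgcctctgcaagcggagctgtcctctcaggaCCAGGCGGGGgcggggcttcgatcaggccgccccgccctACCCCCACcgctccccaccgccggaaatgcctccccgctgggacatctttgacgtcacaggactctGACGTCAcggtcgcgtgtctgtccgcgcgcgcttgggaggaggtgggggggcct
Mir17: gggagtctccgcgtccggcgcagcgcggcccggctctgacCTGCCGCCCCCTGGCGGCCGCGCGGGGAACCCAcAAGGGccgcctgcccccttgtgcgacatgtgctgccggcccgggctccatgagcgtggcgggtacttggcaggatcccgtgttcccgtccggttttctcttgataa
Mir202: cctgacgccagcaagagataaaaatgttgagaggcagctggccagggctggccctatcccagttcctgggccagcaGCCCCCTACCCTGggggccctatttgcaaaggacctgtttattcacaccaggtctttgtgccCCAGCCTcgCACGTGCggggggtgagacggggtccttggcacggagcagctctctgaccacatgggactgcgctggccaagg

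Mature microRNAs encoded by genes at these sites are given next, with the seed, bases 2 to 8, in capitals. One more, miR-106a-5p, is from the Mir106a gene on the X chromosome, whose site is not printed. Genes with a common seed can thus be seen. RefSeq held mature sequences for 123 of the 192 genes by symbol, 201 mature sequences in all, with 181 distinct seeds.
miR-210-3p: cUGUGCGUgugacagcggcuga
miR-22-3p: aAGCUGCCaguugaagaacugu
miR-132-3p: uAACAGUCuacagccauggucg
miR-212-3p: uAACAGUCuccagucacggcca
miR-17-5p: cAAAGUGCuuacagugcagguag
miR-20a-5p: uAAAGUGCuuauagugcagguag
miR-106a-5p: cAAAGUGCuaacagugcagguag
miR-202-5p: uUCCUAUGcauauacuucuuu
Of these, miR-132-3p and miR-212-3p have the seed AACAGUC, and miR-17-5p, miR-20a-5p and miR-106a-5p have AAAGUGC. In all, 15 seeds were found in mature strands of more than 1 of the genes with a site. Other such groups were let-7c, let-7e and let-7i, the strands of Mir125a, Mir125b-1 and Mir125b-2, those of Mir195a, Mir497 and Mir322, and those of the 3 genes Mir199a-1, Mir199a-2 and Mir199b.

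The site with the highest value was not, by the annotation, a microRNA promoter. It measured 19.6 in replicate 1 and 9.87 in replicate 2 and lies 192 bp upstream of Gm47305, a predicted miRNA name. That name and Gm47299 both lie inside Rn7s2, a gene for the 7SL RNA of the signal recognition particle, and the site covers the 5′ end of Rn7s2. In addition, 6 sites covered a transfer RNA gene of RefSeq, which makes 7 of 203 sites, or 3.45%, on another small RNA gene, against 0.377% of all shared peaks over 1 kb from coding starts. One of them is the stronger site of Mir5103 (chr1:34434801-34435020), with 5.05 and 4.36, over n-TEttc1, a glutamate transfer RNA. Of the others, 3 are the sites of n-TStga1, itself a transfer RNA that GENCODE types as miRNA, with 5.00 and 3.30 at the strongest. The last 2 are Mir6546 (1.54 and 0.962) and Mir1983 (0.925 and 0.556). The label of promoters at microRNA genes therefore does not hold for every site, and the word site is used below.

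Among the sites at named microRNAs, Mir210, whose microRNA is known for its induction by low oxygen, was highest. Its site is intergenic, 438 bp upstream of the gene, with 16.9 in replicate 1 and 7.87 in replicate 2 (12.4 ± 6.41, SD, n = 2). It held 5 shared footprints over 93 bases, and the central 150 bp had a match to the motif of CTCF, a factor that shapes chromatin loops, inside a shared footprint. The Mir7655 site followed with 16.4 and 6.80. It lies in an intron of the coding gene Mllt10, 378 bp from the start of the noncoding gene 1810059C17Rik.

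Mir22 had a pair of sites upstream, in the intron of its own noncoding host Mir22hg, which overlaps the coding gene Tlcd2. The nearer, at 645 bp, measured 10.2 and 4.84, and the farther, at 1195 bp, measured 4.08 and 2.30. The nearer site held a GC box, GGGCGG, the motif of Sp and related factors, inside a shared footprint. Mir148a, a microRNA abundant in liver, had an intergenic site 1071 bp upstream at 9.07 and 3.38.

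Mir8111, next after the nearer Mir22 site by its mean, measured 9.77 and 4.91, Mir7b 7.69 and 4.52, and Mir6376 7.69 and 4.40. The site of Gm22065, on chromosome 18 and 50227 bp from the nearest coding start, measured 7.93 and 4.62. Further down the 20 highest, Mir7671 (5.97 and 3.65) and Mir193a (5.97 and 3.47) both lay outside genes, 217 bp and 728 bp upstream. Mir760, Gm25595, Mir8093 and Mir7214 ranged from 4.42 to 5.48 in replicate 1 and from 3.59 to 4.04 in replicate 2. The site of Mir1932, with 5.77 and 3.04, overlapped the RefSeq promoter of the coding gene Rnf213 (chr11:119389849-119390148), 3039 bp from the nearest coding start of GENCODE. A RefSeq promoter of a coding gene lay at 2 sites, this one and Mir3103, or 0.985%, against 0.236% of all shared peaks over 1 kb from coding starts.

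**Figure D1:**
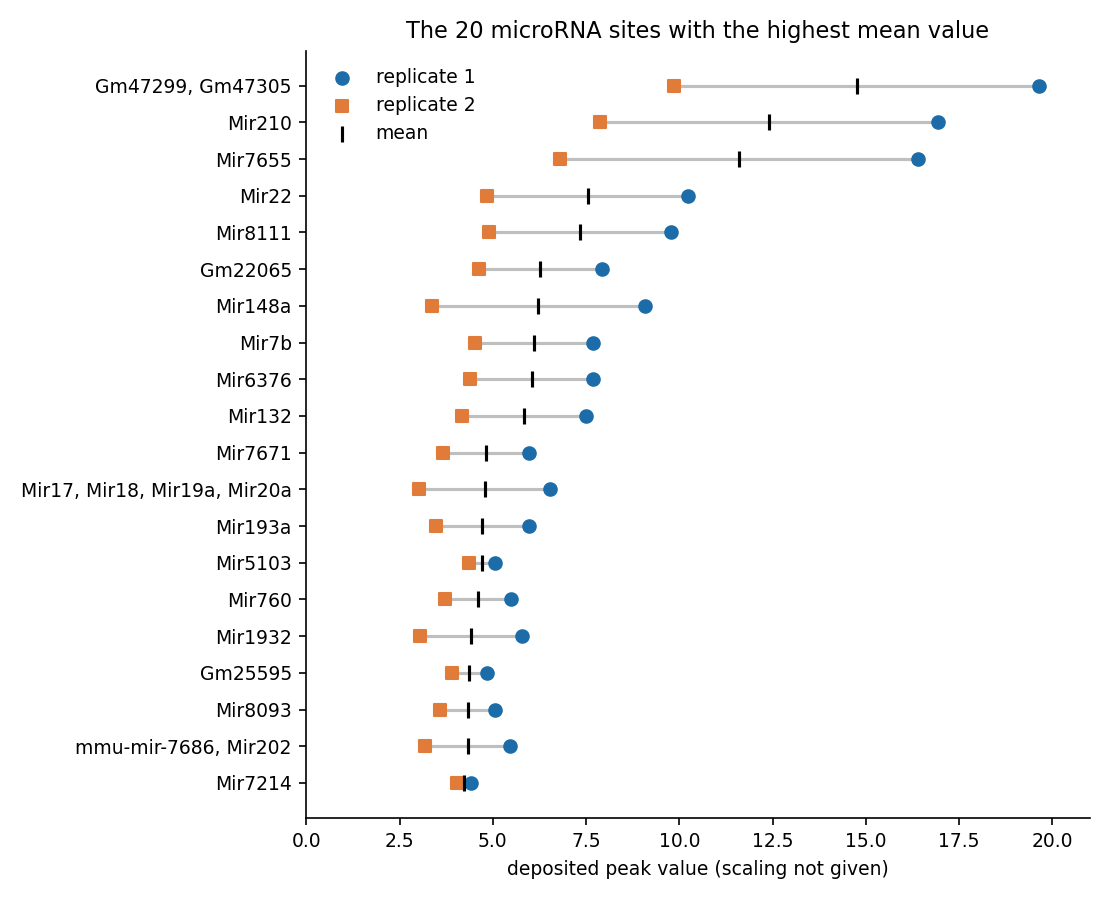
Deposited peak value in replicate 1 (circles) and replicate 2 (squares) of the 20 sites with the highest mean, with the mean as a tick. All 20 were lower in replicate 2, where 74.1% of all shared peaks over 1 kb from coding starts were lower. The 3 highest, from 11.6 to 14.8 in their mean, stand apart from the fourth at 7.54.

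All 20 of these sites had a footprint common to both libraries, with a median of 4 per site, and all were in the shorter peak lists of both libraries. Their values in replicate 2 ran from 3.03 to 9.87, and those of the 20 weakest sites from 0.183 to 0.471. The ends of the ranking did not overlap in either library, but the sites were ranked by the mean of these same values. The 10 strongest sites held 25.7% of the summed value of all sites in replicate 1 and 19.5% in replicate 2. The 5 weakest were at Mir106a and Mir18b on the X chromosome (0.261 and 0.183), Gm27921 (0.287 and 0.203), Gm27883, Gm47314 and Mir344-2, and none of their values was above 0.365. Mir106a belongs to the same seed family as the Mir17 cluster, whose site was 12th from the top.

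Across all 203 sites the median value was 1.17 in replicate 1 and 0.969 in replicate 2, and the middle of the range, from the lower to the upper quartile of the mean, ran from 0.612 to 2.13. The 56818 shared peaks over 1 kb from coding starts had medians of 0.866 and 0.746. The 219 shared peaks in microRNA windows that were left out for lying within 1 kb of a coding start had 4.87 and 2.72. So the middle value of the sites was above that of other distal peaks and well below that of the peaks by coding starts. Of the 203 sites, 127 were above the median of distal peaks. There were 42 above the 90th percentile of distal peaks, where 10% of distal peaks lie by definition, and 12 below the 10th percentile. Sites at named microRNAs, 139 of the 203, had a median mean value of 1.25, and the 64 at Gm or transfer RNA names 0.860.

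The authors also deposited a shorter peak list for each library, and both of these included 79 of the 203 sites, or 38.9%, against 26.9% of shared peaks over 1 kb from coding starts. A further 32 sites were in 1 of the shorter lists and 92 in neither. The deposited q-values listed at least 1 base of every site in both libraries, and the median over sites of the lowest q-value was 2.26e-07 in replicate 1 and 2.73e-07 in replicate 2. The least certain sites had lowest q-values of 0.0365 in replicate 1 and 0.0364 in replicate 2.

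Most of the miRNA genes had no open site by these criteria. No peak over 1 kb from a coding start had its centre in the window of 1741 genes, 79.1% of all. A shared peak lay only within 1 kb of a coding start at 161 genes. A peak centre fell in the window in replicate 1 alone at 61 genes and in replicate 2 alone at 40, and at 7 genes both libraries had a peak but not a pair. Of named microRNAs 133 of 1178 had a site (11.3%), and of other names 59 of 1024 (5.76%). With the same rule 6.57% of snoRNA genes, 5.64% of snRNA genes and 9.43% of misc_RNA genes had a site, so the share for miRNA genes lies within the range of these other small RNA genes.

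Values near the limits of the rule were as follows, with no test. Just inside the 1 kb limit were Mir1934 at 1003 bp (2.03 and 1.51), Gm44354 at 1013 bp (0.475 and 0.576) and Mir99b at 1027 bp (1.69 and 1.34), and just outside were Gm24970 at 975 bp (0.762 and 0.739), Gm44364 at 972 bp (0.684 and 0.903) and Mir1247 at 927 bp (1.14 and 0.412). Just inside the upstream limit were Mir760 at 1998 bp (1.45 and 1.13), Mir497 at 1986 bp (2.83 and 2.34) and Mir26a-1 at 1975 bp (2.98 and 1.45). Just beyond it were Mir7688 at 2028 bp (0.729 and 0.635), Mir7000 at 2035 bp (6.36 and 3.78) and Mir709 at 2035 bp (0.821 and 0.622). Values on the 2 sides of each limit overlapped.

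By host, 72 sites were nearest to a microRNA inside a coding gene on the same strand (35.5%), 28 inside a long noncoding gene on the same strand (13.8%), 34 inside a gene on the opposite strand (16.7%) and 69 outside genes (33.99%). Among all miRNA genes these shares are 44.0%, 7.45%, 14.5% and 34.01%. A microRNA inside a coding gene on its strand was counted there even where a noncoding gene also held it. Mir22 is thus counted under Tlcd2. Median mean values were 1.09 for coding hosts, 1.32 for long noncoding hosts, 0.920 for opposite strands and 1.09 for intergenic microRNAs, and the ranges overlapped throughout. The centre of 99 sites lay in an intron, 27 in an exon and 77 outside genes. Within 500 bp of a start of a noncoding gene there were 19 sites, or 9.36%, against 2.62% of shared peaks over 1 kb from coding starts.

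Several of those 19 were at the start of a known host transcript. The Mir202 site lay 152 bp from the start of Gm2044, the Mir199a-2 site 48 bp from that of Dnm3os, the Mir675 site 108 bp from that of H19, and the Mir6516 site 32 bp from that of Snhg20 (4.66 and 3.15). The site shared by Mir200c and Mir141 was 71 bp from the start of Gm15884. The Mir17 site lay 608 bp from the nearest start of Mir17hg. The 19 sites had a median mean value of 1.09, equal to that of all sites.

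**Figure D2:**
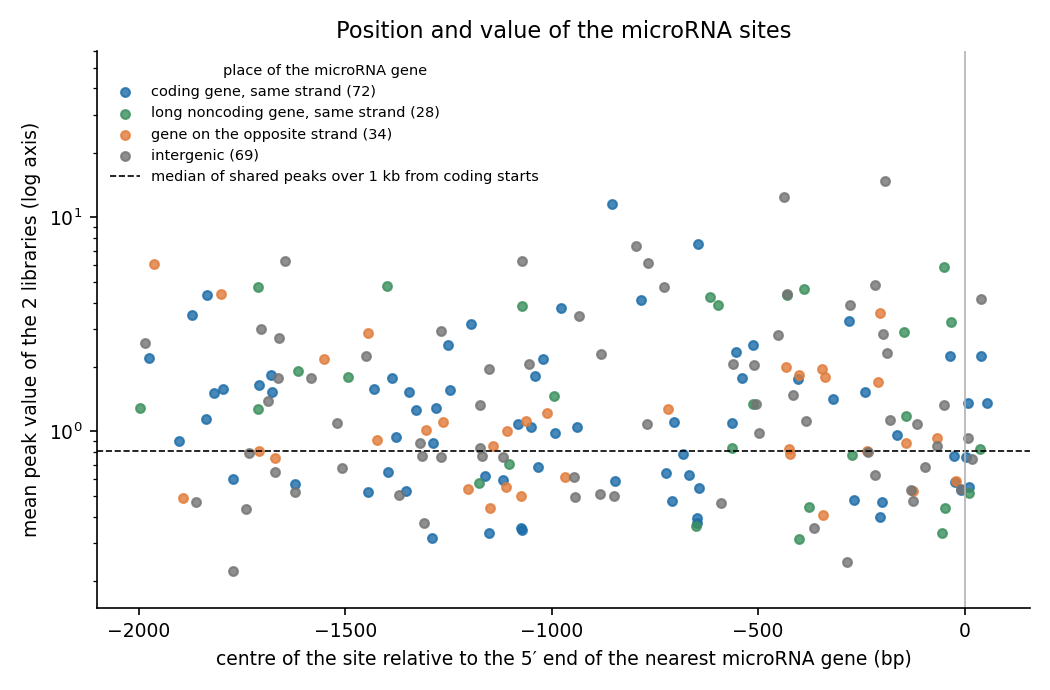
Mean peak value of each of the 203 sites on a log axis against the distance of its centre from the 5′ end of the nearest microRNA gene, upstream to the left, coloured by the place of that gene. Sites of all 4 classes spread over the whole window and on both sides of the dashed line at 0.809, the median of shared peaks over 1 kb from coding starts.

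The centres lay a median of 881 bp upstream of the 5′ end of the microRNA gene. There were 60 centres within 500 bp upstream, 41 from 500 to 1000 bp, 55 from 1000 to 1500 bp and 37 from 1500 to 2000 bp, and 10 inside the gene itself. At 25 sites the overlap of both peaks covered the hairpin or part of it, among them Mir132, Mir145a, Mir137 and Mir1983, with a median of 0.840 in replicate 1 and 0.661 in replicate 2 against 1.27 and 1.06 for the other 178. The 20 sites in windows of more than 1 miRNA gene included the Mir17 cluster with 4 genes, Mir23a with Mir27a and Mir24-2, and the sites of Mir99b with Mirlet7e and Mir125a.

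Of the microRNAs known from ovary and granulosa cells, 19 of 39 genes had a site, at 16 sites with a median mean value of 1.13. Of all miRNA genes 8.72% had a site, and of named microRNAs 11.3%, and the counts of this and the following lists are given beside these shares, with nothing read from them. Mir132, whose microRNA is induced by luteinizing hormone in granulosa cells, had 7.503 in replicate 1 and 4.16 in replicate 2 at a site that covers its hairpin. Its neighbour Mir212, made from the same primary transcript, had 3.59 and 2.25 at a site 147 bp upstream. The gene pair lies in an intron of the noncoding gene 1700016P03Rik, and both microRNAs have a seed in common, as printed above.

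The Mir212 site held 2 matches to the cAMP response element, TGACGTCA, and the Mir132 site 1, and for 1 of those at Mir212 all bases but the first lay in a shared footprint. This motif is bound by CREB, which is known to drive the pair in neurons. It was found at 4 of 203 sites, or 1.97%, against 0.315% of shared peaks over 1 kb from coding starts. Without the 7 sites on another small RNA gene it was at 3 of 196, or 1.53%, with distal peaks not trimmed. The site dropped is Gm47305, where the match lay wholly in a shared footprint. Of the 3 left, Mir132 and Mir212 are at 1 locus, and the third was Mir9-3. The motif holds a CpG, and its share was not compared at equal CpG content.

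The Mir17 cluster, whose microRNAs promote cell proliferation, had 6.54 and 3.03 at a site in reach of Mir17, Mir18, Mir19a and Mir20a. In replicate 2 the same peak's centre was also in the window of Mir19b-1, as was that of a weaker peak (0.236) called only in replicate 2. That gene therefore counts as open in 1 library alone. Mir202, a microRNA enriched in gonads, had 5.46 and 3.19. These sites, with those of Mir22, Mir132 and Mir212, make up the upper part of the list, all above 2.2 in both libraries.

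The rest of that list was lower. Mir125b-1 had 1.65 and 1.27 at the farther of its sites and 0.951 and 0.726 at the nearer, and Mir125b-2 had 1.60 and 0.942. The site of Mir23a, Mir27a and Mir24-2 measured 1.17 and 0.798. Mir375, best known from pancreatic islets, had 1.04 and 0.569 at 235 bp and 0.951 and 0.589 at 1168 bp. Mir130a measured 0.736 and 0.779. Mir675, cut from the imprinted H19 RNA, measured 0.860 and 0.543. The site in reach of Mir322 and Mir503, X-linked microRNAs that restrain the cell cycle, measured 0.599 and 0.687. Mirlet7c-1 was lowest at 0.332 and 0.393. So values within the list ran from among the highest of all sites to among the 10 lowest.

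Of the other 20 genes on it, 13 had no peak over 1 kb from a coding start. Among them were Mir21a, Mir31, Mir383, Mir224, Mir483 and Mir542. Mir130b and Mir320 had a shared peak only near a coding start, and Mir19b-1, Mir335, Mir351, Mir92-1 and Mir99a had a centre in their window in 1 library alone. The single peak at Mir335 had 0.515 and that at Mir99a 0.332, both in replicate 1, and the latter is the replicate 1 peak of the Mirlet7c-1 site.

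For stroma and theca 3 of 15 genes had a site. All 3 are genes of miR-199, from a family of mesenchymal cells: Mir199a-2 had 1.26 and 1.11, Mir199b 1.27 and 0.589, and Mir199a-1 1.13 and 0.648 at one site and 1.00 and 0.654 at another. For smooth muscle 2 of 5 genes had a site, Mir145a with 1.61 and 1.04 and Mir133a-1, beside Mir1b, with 0.345 and 0.327. Mir143, the partner of Mir145a in that tissue, had a peak in replicate 1 alone, at 0.410. Of 8 endothelial genes only Mir26a-1 had a site (2.98 and 1.45), and Mir126a and Mir126b, the defining pair, had none. Its family member Mir26b, with 0.671 and 0.517, is on no list.

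The sites of the epithelial and motile cilia lists lay above the middle of all sites. Their median mean values were 2.05 (3 sites) and 1.89 (2 sites), against 1.09 for all 203 sites. Of the 3 epithelial sites 2 are at Mir203. In replicate 2 the peak of the farther Mir203 site lies wholly inside that of the nearer, so these are not separate there. Mir203, known from stratified epithelium, had 2.996 and 1.67 at 189 bp and 2.53 and 1.56 at 509 bp upstream. Mir200c with Mir141, which hold the epithelial state, had 1.52 and 1.16. The other epithelial genes of the list, 7 of 10, among them Mir200a, Mir200b and Mir429, had no peak. Mir34b and Mir34c, which with the Mir449 genes are needed for motile cilia, had 2.47 and 1.42 upstream of Mir34b and 2.06 and 1.60 upstream of Mir34c, in an intron of Btg4 on the opposite strand. Mir449a, Mir449b and Mir449c had a shared peak only near a coding start. The coding promoters of the ciliary genes Foxj1 (11.8 and 7.13) and Rsph1 (22.9 and 14.2) were open in both libraries, and that of Dnah5 was in neither. The part of oviduct or surface epithelium in these values was not tested.

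Lists with no site were those of the oocyte and early embryo (0 of 14), of blood cells (0 of 10), of skeletal and heart muscle (0 of 7), of liver and pancreas (0 of 5) and of the imprinted chromosome 12 cluster (0 of 46), beside the 8.72% of all miRNA genes. A peak in 1 library alone was called at Mir142 (0.432 in replicate 2) and Mir150 (0.970 in replicate 1), both of blood cells. Mir3071, in the coding gene Rtl1 of that imprinted region but on no list, had 1.14 and 1.05. Nervous system microRNAs had 4 of 15 genes with a site, all low: Mir124a-3 had 0.619 and 0.406 at its stronger site and 0.430 and 0.281 at the other, Mir9-1 0.593 and 0.438, Mir9-3 0.521 and 0.366, and Mir137 0.528 and 0.353. The list's median mean value was 0.444, and all its values were below 0.809, the median of shared peaks over 1 kb from coding starts.

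**Figure D3:**
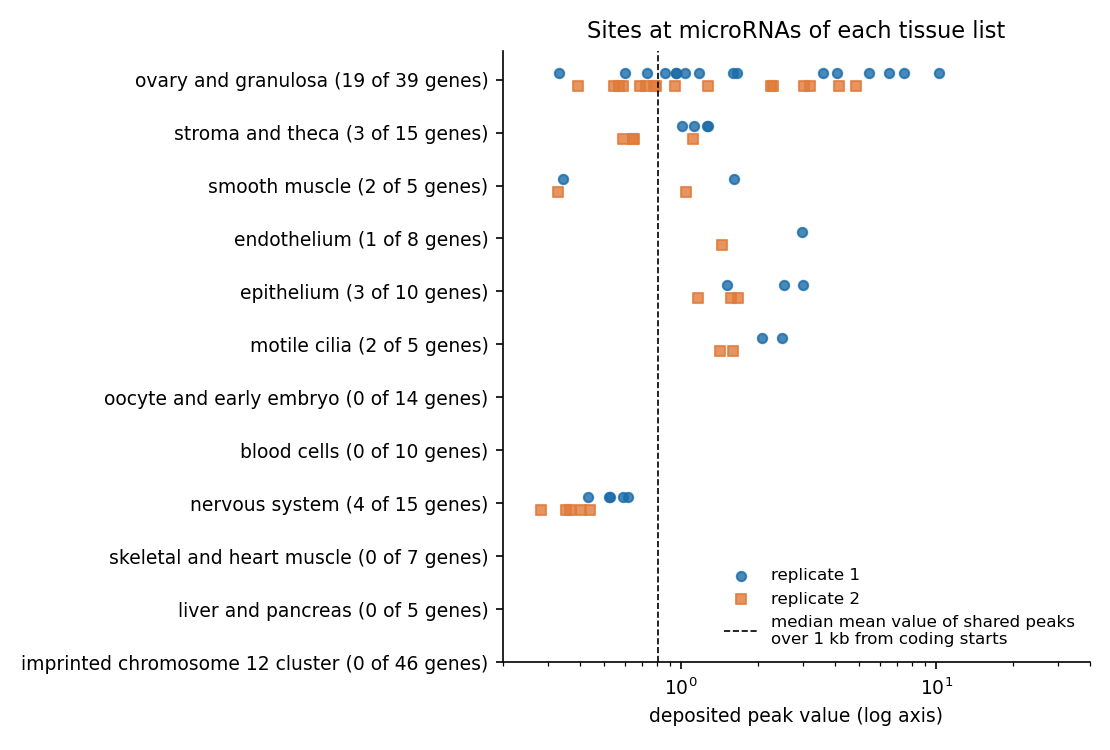
Deposited peak values of the sites on each tissue list, replicate 1 as circles and replicate 2 as squares, on a log axis, with the number of list genes that had a site. The 16 sites of the ovary and granulosa list span from 0.332 to 10.2 in replicate 1, while the 5 nervous system sites stay below the dashed line at 0.809.

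The genes that make and use microRNAs were open almost throughout. A peak within 500 bp of a coding start was called in both libraries at 24 of 26 of them, where 65.6% of all coding genes had one. The nuclear cutters Drosha (13.9 and 8.45) and Dgcr8 (17.2 and 6.90), the exporter Xpo5 (11.1 and 3.96), Dicer1 (16.9 and 9.08) and its partner Tarbp2 (18.4 and 8.45) ran from 3.96 to 9.08 in replicate 2, where values were lower. Of the Argonaute genes Ago4 was lowest, with 2.47 and 0.877, and Ago2, the one that cuts its target, had 8.75 and 4.96. The 2 without a peak were Lin28a and Lin28b, which block the maturation of let-7. Mirlet7i, of that family, had 5.43 and 2.37 at a site 277 bp upstream.

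The labelled tissue was checked at the promoters of marker genes. All 8 granulosa markers had an open promoter in both libraries, from Fshr (0.632 and 0.491) to Foxl2 (6.14 and 3.19). All 4 theca and luteal markers had one too, where 65.6% of all coding genes did. Of the 3 oviduct cilia markers 2 had one, Foxj1 (11.8 and 7.13) and Rsph1 (22.9 and 14.2). Both were higher in each library than any granulosa, theca or luteal marker. None of the 3 oocyte, 3 lymphocyte and 3 hepatocyte markers had one, of the 3 endothelial markers only Cdh5 did (1.19 and 0.955), and of the 3 adipocyte markers only Plin1. The listed microRNAs of the oocyte and early embryo, the Mir290 to Mir295 genes, the Mir302 genes and Mir367, had no site either. A start over 2 kb upstream of these genes would be missed by the rule. Whether oocytes add to the values was not tested.

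A footprint common to both libraries lay in 132 of the 203 sites, or 65.0%, against 65.9% of shared peaks over 1 kb from coding starts. The share was higher where the value was higher. In 3 equal classes of all those distal peaks by mean value, 16 of 51 sites had a shared footprint in the lowest class (31.4%), 35 of 57 in the middle (61.4%) and 81 of 95 in the highest (85.3%). The distal peaks of the same classes had 32.9%, 70.6% and 94.2%, so the sites were near them in the lowest class and below them in the other two. At 39 sites each library had a footprint but none overlapped. This was not counted for the distal peaks, so the 39 has no share beside it and nothing is read from it. The 294 shared stretches were a median of 9 bases long, from 1 to 52.

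**Figure D4:**
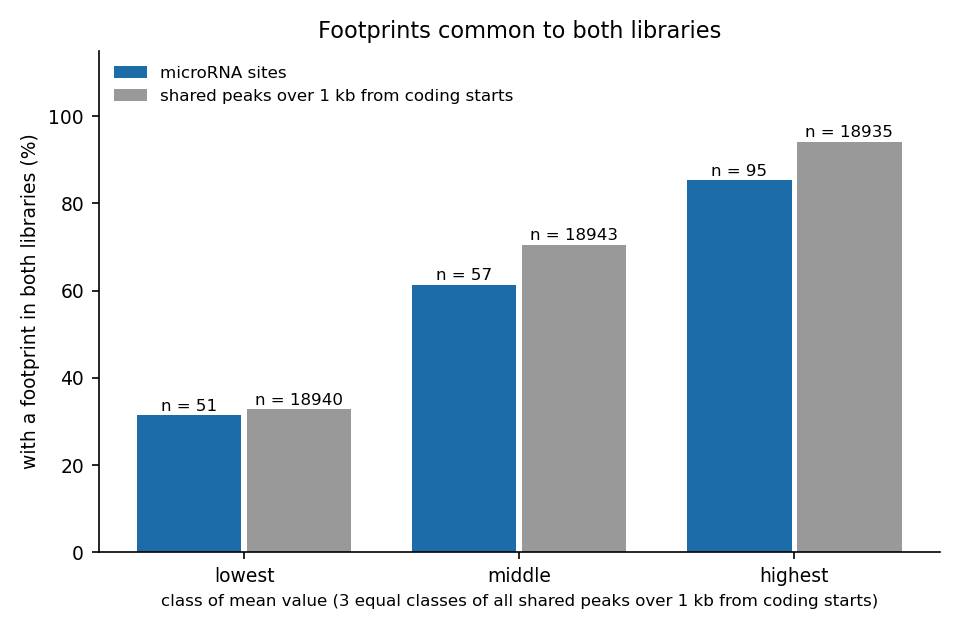
Percent of peaks with a footprint in both libraries that overlap by at least 1 base, for the microRNA sites and for all shared peaks over 1 kb from coding starts, in 3 classes of mean value with the number in each. The bar of the sites goes from 31.4% to 85.3% and is below the grey bar in the middle and highest class and near it in the lowest, where the grey bar is at 32.9%.

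The most shared footprints at a site were 5, against 12 among all shared peaks over 1 kb from coding starts, and 8 sites had 5. These were Mir210, Mir6376, Mir5103, Mir1900 (4.92 and 2.79), Mir8116 in an intron of Ache (4.18 and 2.35), the farther site of Mir203, Gm27857 (1.26 and 1.29) and Mir804 (1.04 and 0.779). At Mir5103 they covered 105 bases, on and beside the transfer RNA gene named above. At Mir804 they covered 32. The sites with most footprints thus ranged from the second strongest to the 116th. How many distal peaks had 5 or more was not counted.

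The sites had a higher GC content than other distal peaks, with no test. The median GC content of the central 150 bp was 57.3%, against 54.0% for shared peaks over 1 kb from coding starts. A ratio of observed to expected CpG over 0.6, a usual limit for CpG islands, was found at 61 sites (30.05%), against 10.8%. In the 20 strongest sites the median GC content was 65.0% and 13 passed that limit, and in the 20 weakest the median was 54.7% and 7 passed.

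Of the 14 motifs searched on both strands, the GC box was the most frequent. It matched in 49 sites (24.1%), in 14 of them wholly within a shared footprint and in 26 with at least 1 base in one, against 10.1% of distal peaks. The GC box is itself made of G and C, and its share was not compared at equal GC content. CTCF matched in 7 sites (3.45%) against 7.45%. The match lay wholly within a shared footprint at 6 of them, Mir210, Mir3074-2, Gm44348, Mir7235, Mir26a-1 and Mir342, and with 12 of its 13 bases at Mir466i. The AP-1 motif TGANTCA, of Fos and Jun, matched in 15 sites (7.39% against 6.10%), and that of the steroidogenic factors of the NR5A family, CAAGGTCA, in 5 (2.46% against 3.06%). The E-box CACGTG was in 3 sites (1.48% against 3.44%), among them Mir202, where it lay in a shared footprint. A match says only that these letters are in the window. How often a match lay in a shared footprint was not counted for distal peaks, so those counts have no share beside them.

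The libraries differed in level. Of the 203 sites 160 were lower in replicate 2 (78.8%) and 43 higher. Among all shared peaks over 1 kb from coding starts 74.1% were lower, a share near that of the sites. The median log2 ratio of replicate 2 over replicate 1 was -0.43 for the sites and -0.30 for those distal peaks. The ratio moved with GC content. Of the 84 sites with over 60% GC, 82 were lower in replicate 2, with a median log2 ratio of -0.74, against -0.64 for distal peaks of that class. Of those distal peaks 8096 of 8446 were lower in replicate 2. The 34 sites with up to 50% GC had a median of 0.07, and 16 of them were lower in replicate 2, as were 7008 of 13798 distal peaks of that class. The part of GC content in the difference between the libraries was not tested.

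The lowest ratios were at Mir148a (-1.42), Mir7655 (-1.27), Mir6939 in an intron of Akt1 (-1.26), Mirlet7i (-1.20) and Mir193b (-1.18), all with over 60% GC. The highest were at Mir466i (1.44, from 0.462 in replicate 1 to 1.26 in replicate 2), Gm25262 (1.07), Mir7228 (0.52), Gm22406 (0.47) and Gm44392 (0.47), all under 50% GC. With 1 group of 2 animals these ratios have no replicate check.

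**Figure D5:**
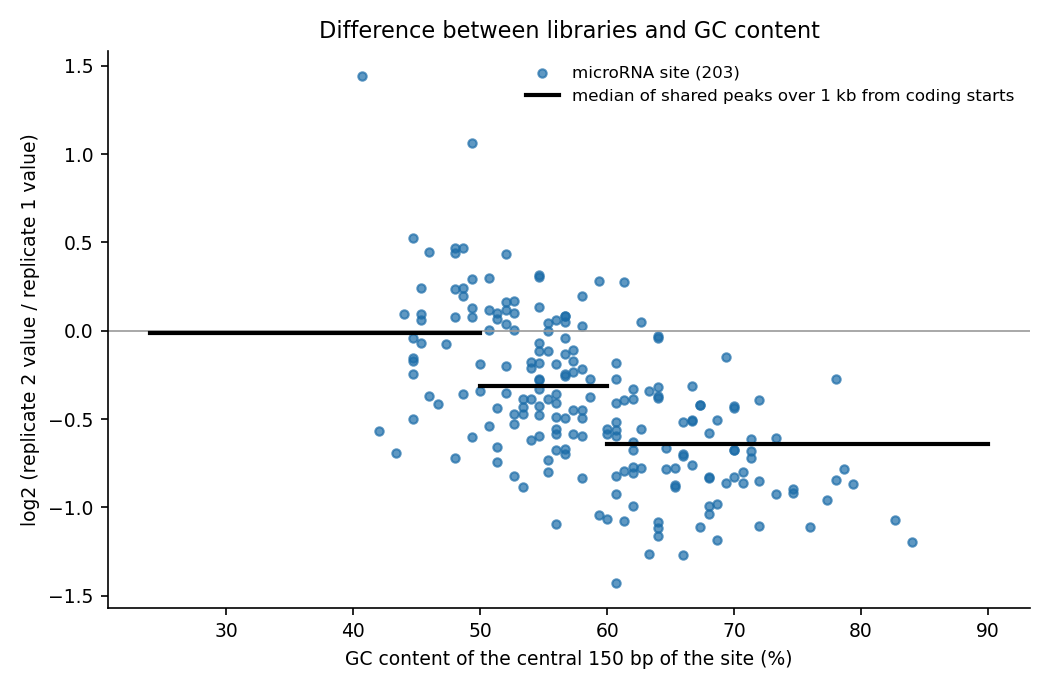
log2 ratio of the replicate 2 value over the replicate 1 value for each of the 203 sites against the GC content of its central 150 bp, with black bars at the medians of shared peaks over 1 kb from coding starts in 3 classes of GC. The sites have a median of 0.07 at up to 50% GC and of -0.74 over 60%, and the bars stand at -0.01 and -0.64.

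Some microRNA genes had a group of sites. Of 171 nearest genes 145 had 1 site and 26 had several, at most 4. The 4 were at Mir99b, in the coding gene Spaca6 beside Mirlet7e and Mir125a, with 2.08 and 1.46 at the strongest and 0.430 and 0.524 at the weakest. Mir1903 by Nrp1, Mir149 in Gpc1, Mir5103 and n-TStga1 had 3 each. Of the microRNAs with a common seed, Mir193a (5.97 and 3.47) and Mir193b (3.03 and 1.33) each had a second, weaker site, with 1.06 and 0.661 at Mir193a and 1.56 and 0.877 at Mir193b. The site of Mir193b overlapped a RefSeq promoter of the noncoding genes Gm32817 and Gm53058. Mir497 had 2.83 and 2.34 at its farther site, and the nearer, also in reach of Mir195a, had 1.82 and 0.870.

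Peaks called in 1 library alone had higher q-values. At the genes with a centre in 1 library alone there were 88 such centres in replicate 1 and 50 in replicate 2, but 5 and 1 of these peaks overlapped a peak of the other library and were left out. The median over the others of their own lowest deposited q-value was 0.00247 in replicate 1 (83 peaks) and 0.0131 in replicate 2 (49 peaks). Of those in replicate 1, 4 had a base with a listed q-value in the other library, and of those in replicate 2, 2 had one.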

How the data were processed

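DNase-seq of ovary was measured in 2 libraries of 1 group, numbered by the biological replicate in the labels. Coordinates are mm10, per the labels, and genes are from GENCODE release M21 on GRCm38, the same build. Not given in the sources used here are the aligner, the peak and footprint callers and the cutoffs. The authors deposited 1 signal value per peak, called in each library separately, with no scaling stated. In each library 100% of these values were whole multiples of 1 step, 0.00651 in replicate 1 and 0.00654 in replicate 2, within 0.05 of a step. In steps a site had at least 40 in replicate 1 and 28 in replicate 2, with medians of 180 and 148. That 1 step is 1 read was not shown, so the depth is unknown. Per base, the authors deposited q-values (false discovery rates), and they deposited footprints with a score that is the same in every line, of which only the positions were used.

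Peaks of the longer list of each library were paired one to one by the longest overlap, at least 1 base, in Python 3.11.15 with numpy 2.4.6. Sequence was read with pysam 0.24.0 and q-values were intersected with bedtools 2.31.1. The rule was tested on simulated data, with 2000 genes, and found all 232 planted sites. Coding starts are those of protein-coding transcripts, a choice made after the annotation was read. Motifs were searched in 150 bp around each centre.

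The members and all lists of genes and motifs were chosen with earlier results of these data known. Sites named are the 20 with the highest mean, those on the tissue lists, the 5 lowest, the 5 highest and 5 lowest ratios and those with most shared footprints. Other names were chosen after their values were seen. No comparison between groups was possible with 1 group, so no p-value was computed. The alternatives tried were other peak lists, overlaps, windows, distances from coding starts and gene sets, and each library alone. The sequences of some sites are not reported here.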

Additional observations from a re-analysis of the deposited data

How the results depend on the processing

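The count of 203 sites was 134 with the shorter peak lists, 108 with 1 kb upstream and 442 with 5 kb upstream, and between 301 and 334 with 1 library alone. The 192 genes became 112 with 1 kb and 367 with 5 kb, and between 249 and 263 with 1 library alone. The median value of 1.09 was 1.76 with the shorter lists, 1.25 with a reciprocal overlap of at least 50% of each peak, 1.25 with microRNA names alone and between 0.687 and 0.742 with 1 library alone. Sites with a shared footprint numbered 69 with 1 kb and 307 with 5 kb against 132, and between 248 and 275 sites had any footprint in 1 library alone. Under the other alternatives counts stayed within 1.5 times and the median within the SD of 0.144 between the libraries. With starts of every transcript of coding genes, an alternative added after seeing the data like the restriction to microRNA names, there were 180 sites at 173 genes. No paired analysis was possible because there is 1 group. Because the scaling of the values is unknown, no counting error can be given for a site.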
